A study of Mus musculus with 8 samples.

Results

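Metallothioneins and zinc transporters form the zinc handling machinery of the cell, and the 8 mouse genes *Mt1*, *Mt2*, *Mtf1*, *Slc39a14*, *Slc39a8*, *Slc39a1*, *Slc30a1* and *Slc30a2* are described here in dystrophic TA muscle. They were selected by gene symbol, with earlier results of these data known, and all 8 were found among the 55401 genes of the table. Bulk RNA-seq had been performed on 4 TA muscle samples of *mdx5cv* mice, a model of Duchenne muscular dystrophy (DMD) that carries a mutation in *Dmd*, and 4 samples of WT mice. Both groups were 6 mo old and are given as the C57/Bl6 strain. Both are taken to be male, as a general statement in the methods says. The RNA came from whole muscle, so in these bulk samples fewer cells of a type and less RNA per cell cannot be told apart. The labels number the samples of each group but do not say whether each came from a separate mouse, so p-values measure only the spread between these samples, which may be technical.

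Metallothioneins are small, cysteine-rich proteins that bind zinc and copper in the cytosol and buffer their free concentration. MTF-1, the product of *Mtf1*, is a zinc finger transcription factor that senses free zinc and binds metal response elements (MREs) in the promoters of metallothionein genes and of *Slc30a1*. ZIP proteins, encoded by the *Slc39a* genes, carry zinc into the cytosol. Most ZnT proteins, encoded by the *Slc30a* genes, carry zinc out of the cytosol to the outside of the cell or into vesicles. Metallothionein transcripts are also known to respond to glucocorticoids, inflammatory cytokines and oxidants, and they are known to rise in wasting skeletal muscle.

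The values are normalized counts, in which the reads of each gene had been divided by a size factor of the sample. Each muscle had between 13175524 and 14921057 recovered reads. *Dmd* itself was measured at 6914, 8155, 6579 and 6169 normalized counts in WT muscles 1 to 4, and at 4399.6, 4056, 3941 and 3461 in *mdx5cv* muscles 1 to 4. All 4 *mdx5cv* muscles were below all 4 WT muscles, with a log2 fold change of -0.81 (SE 0.12, limma adjusted p = 0.000177). The summed fast fiber markers of skeletal muscle (*Myh4*, *Pvalb*, *Actn3*, *Ckm*, *Mybpc2* and *Tnnt3*) ranged from 519251 to 959003 normalized counts over the 8 muscles. The comparison was made by limma on log2(normalized count + 1). All log2 fold changes are *mdx5cv* minus WT on that scale, where changes of weakly expressed genes come out too small. A gene was called at a Benjamini-Hochberg adjusted p under 0.05, taken over the 13677 genes whose normalized counts averaged 10 or more.

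Of the 8 genes, 3 rose in *mdx5cv* muscle (*Mt1*, *Mt2* and *Slc39a8*), 1 fell (*Slc30a2*), and 4 were not called (*Mtf1*, *Slc39a14*, *Slc39a1* and *Slc30a1*). Among all genes tested, 20.9% were called higher and 20.1% lower, so a share of 3 in 8 and 1 in 8 has to be read against a background in which calls are common. When the log2 fold change also had to reach 1 in either direction, the same 3 genes rose and *Slc30a2* fell, whereas 10.3% of all genes tested passed as higher and 3.27% as lower. The groups did not overlap for these 4 genes, nor for 40.1% of all genes tested. The median log2 fold change was 0.35 over the 8 genes and 0.00 over all genes tested. *Slc39a8* reached the mean of 10 only through its level in *mdx5cv* muscle, so its place among the genes tested already required a difference. When each sample was scaled to the same total, the median of all genes shifted to 0.36 and the share of higher calls among all calls moved from 51.0% to 86.9%. Under that scaling all 8 genes were called, 7 higher and 1 lower, and no gene of the 8 changed direction.

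**Figure D1:**
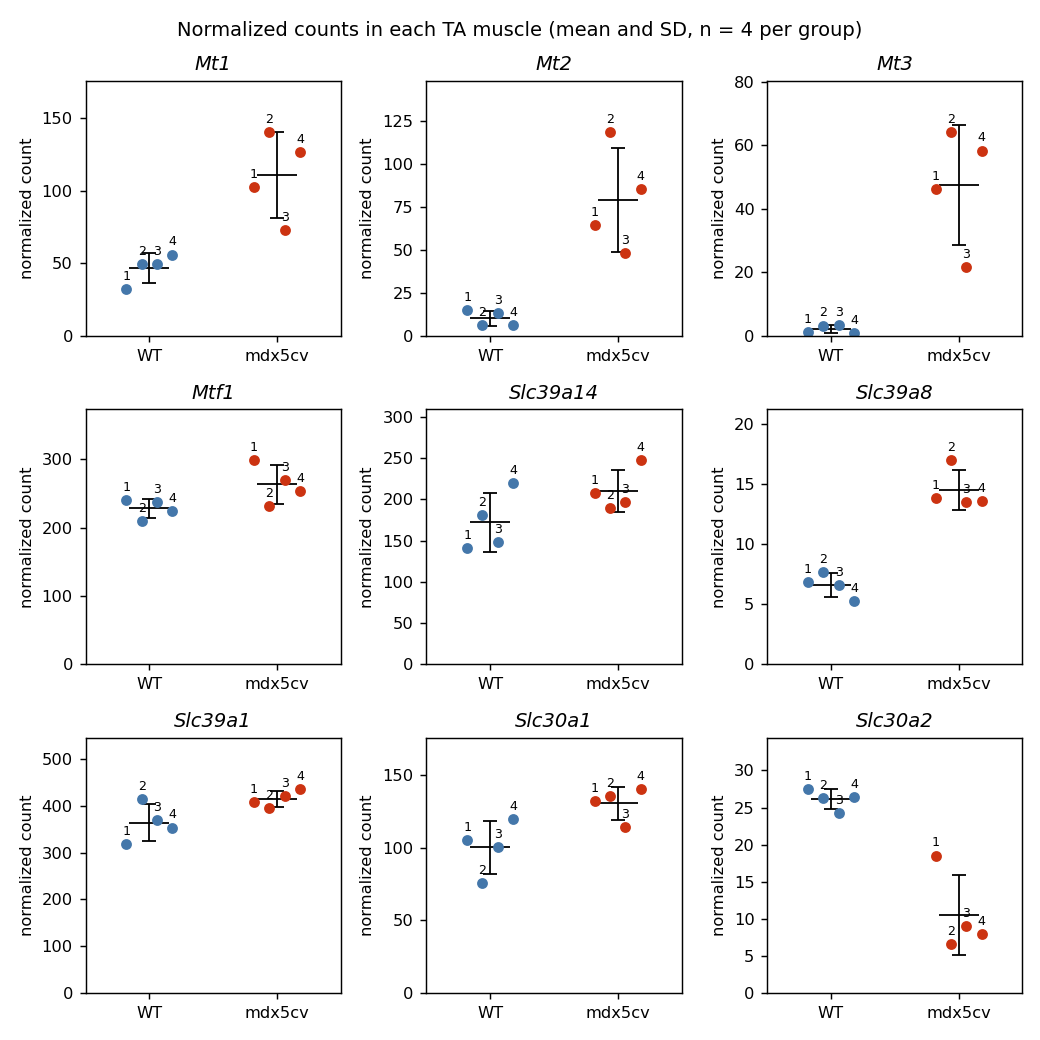
Normalized counts (vertical axis, linear, from 0) in each of 4 WT and 4 *mdx5cv* TA muscles, numbered by replicate, for the 8 genes and *Mt3*; horizontal bars are means and error bars SD. *Mt1*, *Mt2*, *Mt3* and *Slc39a8* lie higher and *Slc30a2* lies lower in all 4 *mdx5cv* muscles, and the groups overlap in the other 4 panels.

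The metallothionein genes of the mouse lie side by side on chromosome 8. *Mt2* and *Mt1* are the members of this cluster in the set, and *Mt3* is the neighboring gene, which is described with them because its transcript is part of the same family. The coding sequences are shown because the cysteine codons define these proteins. They are those of the transcripts Mt1-201, Mt2-201 and Mt3-201 in GENCODE M21, each joined from 3 coding exons, 5′ to 3′ on the plus strand, with cysteine codons in capitals. On GRCm38 the coding parts span chr8:94179311-94180193 in *Mt1*, chr8:94172848-94173427 in *Mt2* and chr8:94152800-94154010 in *Mt3*.
Mt1: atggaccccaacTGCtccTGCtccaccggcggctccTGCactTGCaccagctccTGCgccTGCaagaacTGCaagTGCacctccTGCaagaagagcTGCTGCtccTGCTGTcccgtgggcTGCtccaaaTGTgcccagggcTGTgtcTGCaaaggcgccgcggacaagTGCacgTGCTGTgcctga
Mt2: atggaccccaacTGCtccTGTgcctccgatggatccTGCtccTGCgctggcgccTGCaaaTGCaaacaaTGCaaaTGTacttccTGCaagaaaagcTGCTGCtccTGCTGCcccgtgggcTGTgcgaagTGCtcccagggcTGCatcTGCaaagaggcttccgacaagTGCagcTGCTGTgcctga
Mt3: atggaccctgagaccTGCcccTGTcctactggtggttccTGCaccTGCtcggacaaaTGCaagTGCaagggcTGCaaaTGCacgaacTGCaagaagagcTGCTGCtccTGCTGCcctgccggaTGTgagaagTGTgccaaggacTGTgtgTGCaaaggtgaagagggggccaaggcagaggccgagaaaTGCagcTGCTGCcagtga
Each of the 3 sequences holds 20 cysteine codons. *Mt1* and *Mt2* have 186 coding bases each, of which 148 are identical (79.6%), and *Mt3* has 207. Over 186 aligned bases *Mt3* was 72.6% identical to *Mt1* and 75.3% identical to *Mt2*. The longest stretch that the whole transcripts of *Mt1* and *Mt2* share is 20 bases, and *Mt3* shares at most 27 bases with *Mt1* and 20 bases with *Mt2*.

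The promoters of the same 3 genes are shown because their transcripts all rose in *mdx5cv* muscle. Each window runs from 250 bases before to 50 bases after the RefSeq start on GRCm38.p6, 5′ to 3′ on the plus strand. For *Mt1* and *Mt2* this start is not the GENCODE start of the gene. The windows are chr8:94178839-94179138 for *Mt1*, chr8:94172368-94172667 for *Mt2* and chr8:94152357-94152656 for *Mt3*. Capitals mark matches to the MRE core, searched as TGCACNC or TGCGCNC on both strands.
Mt1: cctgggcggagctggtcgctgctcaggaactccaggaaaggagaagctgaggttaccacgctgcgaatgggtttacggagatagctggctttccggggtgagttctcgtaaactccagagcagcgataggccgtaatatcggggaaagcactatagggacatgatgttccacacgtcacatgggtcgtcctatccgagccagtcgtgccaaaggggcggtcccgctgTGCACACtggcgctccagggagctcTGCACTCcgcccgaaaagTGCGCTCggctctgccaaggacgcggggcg
Mt2: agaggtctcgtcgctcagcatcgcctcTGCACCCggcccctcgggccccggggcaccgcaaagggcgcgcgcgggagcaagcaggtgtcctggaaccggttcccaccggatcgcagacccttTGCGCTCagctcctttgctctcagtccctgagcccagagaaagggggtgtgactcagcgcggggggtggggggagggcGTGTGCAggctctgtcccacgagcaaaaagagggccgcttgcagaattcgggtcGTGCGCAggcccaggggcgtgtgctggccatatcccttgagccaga
Mt3: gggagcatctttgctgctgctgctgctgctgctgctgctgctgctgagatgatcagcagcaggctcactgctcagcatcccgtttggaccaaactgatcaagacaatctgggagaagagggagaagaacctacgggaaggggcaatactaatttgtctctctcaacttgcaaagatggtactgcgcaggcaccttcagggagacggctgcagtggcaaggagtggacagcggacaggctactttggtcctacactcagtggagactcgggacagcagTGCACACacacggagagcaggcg
The *Mt2* window held 4 matches, which begin at -223, -128, -50 and 5, where 1 is the first base by RefSeq. The match at 5 lies before the GENCODE start of *Mt2* at chr8:94172664, so positions depend on the start used. MREs outside the windows were not searched. The *Mt1* window held 3 matches, at -23, 3 and 21, and the *Mt3* window held 1, at 28. Of 32851 windows of this length in RefSeq, 25.7% held at least 1 match, 1.97% at least 3 and 0.517% at least 4.

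RefSeq windows were found for 7 of the 8 genes, *Slc39a14* being the gene with no entry. The windows of *Slc30a1* and *Slc30a2* held 2 MRE matches each (at least 2 were found in 7.11% of all windows), and 1 of the 2 windows of *Slc39a8* held 1 match. The windows of *Mtf1* and *Slc39a1* held none. The antioxidant response element was searched as TGACNNNGC, which 12.4% of all windows held. It was found once in each of *Mt2*, *Slc30a1*, *Slc39a1* and *Slc39a8*, and in *Mt2* it begins at -79 and overlaps no MRE match. The STAT motif TTCNNNGAA, held by 8.30% of all windows, was found in none of the 7 genes. A match is a stretch of letters and does not show that a factor binds there.

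*Mt2* showed the largest change of the 8 genes. *Mt2* (ENSMUSG00000031762, chr8:94172664-94173568, plus strand) encodes metallothionein-2, a widely expressed and metal-inducible form. It was measured at 14.9, 6.58, 13.3 and 6.36 normalized counts in WT muscles 1 to 4 and at 64.9, 119, 48.6 and 85.5 in *mdx5cv* muscles 1 to 4. Every *mdx5cv* muscle was higher than the highest WT muscle, and among *mdx5cv* muscles replicate 2 was highest and replicate 3 lowest. The mean rose from 10.3 ± 4.45 to 79.5 ± 30.3 (SD, n = 4), which is a log2 fold change of 2.85 (SE 0.33, 95% confidence interval 2.13 to 3.56, limma adjusted p = 2.87e-05). These values rest on 37 reads in the 4 WT muscles together and 357 in the 4 *mdx5cv* muscles. The ratio of these reads, adjusted for the size factors, was 7.79 (exact 95% interval 5.54 to 11.2, which covers counting error only).

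*Mt1* (ENSMUSG00000031765, chr8:94179082-94180327, plus strand) encodes metallothionein-1, the other widely expressed form. It was measured at 32.1, 49.4, 49.8 and 56.1 normalized counts in WT muscles 1 to 4 and at 103, 141, 72.9 and 127 in *mdx5cv* muscles 1 to 4. The groups did not overlap, and the *mdx5cv* muscles stood in the same order as for *Mt2*, from replicate 2 down through 4 and 1 to 3. The WT muscles did not stand in the same order, since replicate 1 was lowest for *Mt1* and highest for *Mt2*. The mean rose from 46.8 ± 10.3 to 111 ± 29.7 (SD, n = 4), with a log2 fold change of 1.21 (SE 0.23, 95% confidence interval 0.73 to 1.70, limma adjusted p = 0.000955). The reads numbered 171 in WT and 500 in *mdx5cv* muscles, with an adjusted ratio of 2.36 (exact 95% interval 1.98 to 2.82). The intervals of the log2 fold changes of *Mt1* and *Mt2* did not overlap, but the difference between the genes was not tested.

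*Mt2* therefore made up a larger part of the reads of these 2 metallothioneins in *mdx5cv* muscle. In WT muscles 1 to 4, *Mt2* held 31.7%, 11.8%, 21.1% and 10.2% of the *Mt1* and *Mt2* reads, out of 41, 51, 57 and 59 reads. In *mdx5cv* muscles 1 to 4, it held 38.7%, 45.8%, 40.0% and 40.2%, out of 181, 275, 135 and 266 reads. The share was higher in every *mdx5cv* muscle than in every WT muscle, but the interval of WT replicate 1 (exact 95% interval 18.1% to 48.1%) included all 4 *mdx5cv* shares. The mean share was 18.7% ± 9.93 in WT and 41.2% ± 3.17 in *mdx5cv* muscle (SD, n = 4). No test is given, because the share is built from the same counts as the fold changes above.

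**Figure D2:**
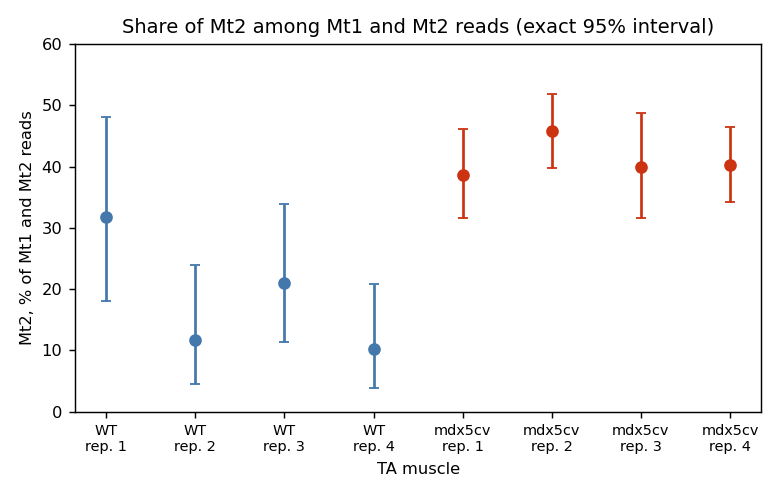
Share of *Mt2* among the reads of *Mt1* and *Mt2* (vertical axis, percent, from 0) in each TA muscle, with exact 95% binomial intervals that cover counting error only. The WT muscles lie between 10.2% and 31.7% and the *mdx5cv* muscles between 38.7% and 45.8%, and the interval of WT replicate 1 reaches over the *mdx5cv* values.

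*Mt3*, whose product is best known from the brain, moved with them although it is scarcely present in WT muscle. *Mt3* (ENSMUSG00000031760, chr8:94152607-94154146, plus strand) was measured at 1.15, 3.29, 3.32 and 1.06 normalized counts in WT muscles 1 to 4 and at 46.3, 64.1, 21.6 and 58.3 in *mdx5cv* muscles 1 to 4. The groups did not overlap, and the order within *mdx5cv* was again from replicate 2 down through 4 and 1 to 3. The mean rose from 2.20 ± 1.27 to 47.6 ± 18.9 (SD, n = 4), with a log2 fold change of 3.91 (SE 0.42, limma adjusted p = 1.66e-05). There were 8 reads in the WT muscles and 215 in the *mdx5cv* muscles, an adjusted ratio of 21.7 (exact 95% interval 10.8 to 50.9). *Mt3* passed the filter only through its *mdx5cv* level. *Mt4*, known from stratified epithelia, had no reads in WT muscle and 1 read in each of 2 *mdx5cv* muscles, and was not tested.

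In these samples of whole muscle, markers of other cell types and of regenerating fibers also moved in the same comparison. The counts of calls in this and the next paragraph stand beside 20.9% higher and 20.1% lower calls among all genes tested. All 7 macrophage markers (*Adgre1*, *Cd68*, *Csf1r*, *Itgam*, *Lyz2*, *Ptprc* and *Mrc1*) were called higher, and their summed level was 536 to 803 normalized counts in WT and 3956 to 9619 in *mdx5cv* muscles. All 5 markers of regenerating fibers (*Myh3*, *Myh8*, *Mymk*, *Chrng* and *Ncam1*) were higher, with sums of 166 to 182 in WT and 2263 to 8644 in *mdx5cv* muscles. Of 6 fibroblast markers 5 were higher, with sums of 5726 to 8367 and 18845 to 33585. Among 5 neutrophil markers only *Csf3r* reached the filter, at 6.02 normalized counts in WT and 52.9 in *mdx5cv* muscle. *Csf3r*, *Itgam*, *Mymk* and *Chrng* passed the filter only through their *mdx5cv* level, so their higher calls were built in, and *Mymk* and *Chrng* had 1 read each in WT muscle. The summed neutrophil markers were at 4.58 to 14.3 in WT and 27.9 to 98.3 in *mdx5cv* muscles, and most of the *mdx5cv* sum was *Csf3r*. *S100a8* averaged 1.39 in WT and 2.56 in *mdx5cv* muscle, and *S100a9* averaged 1.91 and 2.05. *Ly6g* had 1 read in WT and 0 in *mdx5cv* muscles, and *Retnlg* had no reads in any muscle.

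In the other direction, all 5 endothelial markers (sums 2891 to 3438 in WT and 1705 to 2161 in *mdx5cv*), 4 of 5 adipocyte markers (909 to 1480 and 423 to 658), all 3 erythrocyte markers (600.4 to 1086 and 279.7 to 609) and 3 of 6 fast fiber markers (798890 to 959003 and 519251 to 821973) were called lower. Of 5 slow fiber markers, 3 were higher (*Tnnt1*, *Tnni1* and *Tnnc1*) and 1 was lower (*Myl3*), with sums of 435 to 513 and 438 to 1164. Most of the WT sum was *Myl3*, with means of 357 in WT and 38.7 in *mdx5cv* muscle, so these sums hide changes in opposite directions. Most of the adipocyte sum was *Fabp4*, with means of 931 in WT and 496 in *mdx5cv* muscle. *Adipoq*, *Plin1*, *Lep* and *Cidec* were each highest in WT replicate 4, at 121, 167, 91.1 and 84.7 normalized counts. *Lep* and *Cidec* averaged 3.67 and 7.39 in *mdx5cv* muscle and passed the filter only through their WT level. Part of their lower calls, with equal totals as well, was therefore built in. With equal totals 3 endothelial, 3 adipocyte, 2 erythrocyte and 1 fast fiber markers were still lower, and 3 of the 6 fast fiber markers turned above 0. The muscle with the highest *Mt1*, *Mt2* and *Mt3*, *mdx5cv* replicate 2, had a macrophage sum of 4590.4, below those of replicates 1 and 4 at 5626 and 9619. Its regenerating fiber sum of 2263 was the lowest of the 4 *mdx5cv* muscles. Replicate 3, which was lowest of the *mdx5cv* muscles for *Mt1*, *Mt2* and *Mt3*, also had the lowest macrophage sum, 3956. It had the lowest neutrophil sum as well, 27.9, of which *Csf3r* alone made up 23.4. The part of these cells in the changes of the zinc genes was not tested.

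*Mtf1* (ENSMUSG00000028890, chr4:124802104-124849800, plus strand), the zinc sensor, was measured at 241, 209.5, 238 and 225 normalized counts in WT muscles 1 to 4 and at 298, 232, 269 and 253 in *mdx5cv* muscles 1 to 4. The groups overlapped, since *mdx5cv* replicate 2 lay within the WT range. The log2 fold change of 0.20 (SE 0.11, 95% confidence interval -0.04 to 0.45) did not pass the test (limma adjusted p = 0.176). The interval leaves room for a rise of up to 0.45 and a fall of 0.04 on the log2 scale. The end of *Mtf1* overlaps *1110065P20Rik* on the opposite strand, which had 304 reads in WT and 240 in *mdx5cv* muscles. Whether the counting used the strand is not given in the sources used here.

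Among the importers, *Slc39a8* (ENSMUSG00000053897, chr3:135825279-135888572, plus strand) rose at a low level. It encodes ZIP8, a carrier of zinc and manganese. Its level was 6.88, 7.68, 6.63 and 5.30 normalized counts in WT muscles 1 to 4 and 13.9, 17, 13.5 and 13.6 in *mdx5cv* muscles 1 to 4. All *mdx5cv* muscles were higher than all WT muscles, although only 24 and 65 reads stood behind the groups. The mean rose from 6.62 ± 0.990 to 14.5 ± 1.67 (SD, n = 4), which is a log2 fold change of 1.03 (SE 0.31, 95% confidence interval 0.36 to 1.70, limma adjusted p = 0.0178). This call was lost without *mdx5cv* replicate 2 (adjusted p = 0.0557), without the filter on low counts (adjusted p = 0.0577) and with DESeq2 on the recovered reads (adjusted p = 0.0534).

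*Slc39a14* (ENSMUSG00000022094, chr14:70303469-70351425, minus strand) encodes ZIP14, an importer of zinc, manganese and iron that is known to be induced by IL-6. The 4 WT muscles, in replicate order, gave 141, 181, 148 and 219 normalized counts, and the 4 *mdx5cv* muscles gave 208, 189.6, 197 and 247. WT replicate 4 lay above 3 of the 4 *mdx5cv* muscles. The mean was 172 ± 35.8 in WT and 210.3 ± 25.5 in *mdx5cv* muscle (SD, n = 4), and the log2 fold change of 0.30 (SE 0.15, 95% confidence interval -0.03 to 0.63) did not pass the test (limma adjusted p = 0.133). Without WT replicate 4 the log2 fold change was 0.42 and the gene was called higher (adjusted p = 0.0326).

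*Slc39a1* (ENSMUSG00000052310, chr3:90248172-90253612, plus strand) encodes ZIP1, a widely expressed importer of the plasma membrane. Normalized counts were 319, 416, 369 and 354 in WT muscles 1 to 4 and 409, 395, 421 and 436 in *mdx5cv* muscles 1 to 4. WT replicate 2 lay within the *mdx5cv* range, and the *mdx5cv* muscles were close together. The log2 fold change of 0.19 (SE 0.11, 95% confidence interval -0.04 to 0.43) did not pass the test (limma adjusted p = 0.166).

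Of the exporters, *Slc30a2* fell and *Slc30a1* was not called, and the difference between them was not tested. *Slc30a2* (ENSMUSG00000028836, chr4:134343181-134354484, plus strand) encodes ZnT2, which loads zinc into vesicles and is best known from secretory cells such as those of the mammary gland. It was measured at 27.5, 26.3, 24.3 and 26.5 normalized counts in WT muscles 1 to 4 and at 18.5, 6.60, 9 and 7.99 in *mdx5cv* muscles 1 to 4. The WT muscles lay close together and all 4 *mdx5cv* muscles lay below them, with replicate 1 nearest to WT. The mean fell from 26.2 ± 1.33 to 10.5 ± 5.42 (SD, n = 4), with a log2 fold change of -1.34 (SE 0.31, 95% confidence interval -2.01 to -0.66, limma adjusted p = 0.00436). The group totals were 95 and 47 reads. The fall was called in all 17 alternatives that gave a value, with log2 fold changes from -1.62 to -0.85, including the scaling to equal totals (adjusted p = 0.0254).

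*Slc30a1* (ENSMUSG00000037434, chr1:191906767-191913247, plus strand) encodes ZnT1, the exporter of the plasma membrane and a known target of MTF-1. It was measured at 105, 75.7, 101 and 119.7 normalized counts in WT muscles 1 to 4 and at 132, 136, 114 and 141 in *mdx5cv* muscles 1 to 4. Only WT replicate 4 reached into the *mdx5cv* range, above replicate 3. The mean was 100.4 ± 18.3 in WT and 131 ± 11.5 in *mdx5cv* muscle (SD, n = 4), and the log2 fold change of 0.39 (SE 0.15, 95% confidence interval 0.06 to 0.73) missed the threshold (limma adjusted p = 0.0572). Without WT replicate 4 it was called higher (log2 fold change 0.48, adjusted p = 0.0289).

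The 4 genes that were not called had log2 fold changes from 0.19 to 0.39, and all 4 became calls when every sample was scaled to the same total. Under that scaling their log2 fold changes were 0.56 for *Mtf1*, 0.66 for *Slc39a14*, 0.55 for *Slc39a1* and 0.75 for *Slc30a1*. Relative to the shift of 0.36 in the median of all genes, they were 0.20, 0.30, 0.20 and 0.39. *Mt1*, *Mt2* and *Slc30a2* were at 1.21, 2.83 and -1.36 relative to that shift.

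The wider family was taken as every other *Slc39a* and *Slc30a* gene in the table, with *Mt3* and *Mt4*. Of these 21 genes, 14 passed the filter, 4 rose, 1 fell and 9 were not called, and the median log2 fold change of the 14 was 0.17. The share of higher calls, 4 of 14, is near the 20.9% of all genes tested, and it includes *Mt3*, whose place in the test required a difference. Among the other ZIP genes, 2 of 8 tested rose and none fell. *Slc39a6*, a plasma membrane importer, rose from 25.6 ± 6.33 to 52.8 ± 11 normalized counts (SD, n = 4), with a log2 fold change of 1.03 (SE 0.24, limma adjusted p = 0.00377). *Slc39a11* rose from 22.6 ± 2.47 to 34.9 ± 4.88, with a log2 fold change of 0.60 (SE 0.21, limma adjusted p = 0.0324). The groups did not overlap for either gene. The call of *Slc39a11* was lost in 5 of the 8 fits that left out 1 muscle (adjusted p up to 0.103), namely those without WT replicate 3 or 4 or *mdx5cv* replicate 1, 2 or 4, and it was also lost without the filter on low counts (adjusted p = 0.0922) and with DESeq2 (adjusted p = 0.0869).

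Among the other ZnT genes, 1 of 5 tested rose and 1 fell. *Slc30a7*, which moves zinc into the Golgi, rose from 129 ± 14 to 197 ± 44.2 normalized counts (SD, n = 4), with a log2 fold change of 0.59 (SE 0.16, limma adjusted p = 0.00904). *Slc30a9*, the ZnT gene with the most reads in these muscles, fell from 1145 ± 243 to 767 ± 68.8, with a log2 fold change of -0.56 (SE 0.14, limma adjusted p = 0.0068). With equal totals its log2 fold change was -0.20 and it was not called (adjusted p = 0.209), and the family then had 7 higher and 0 lower calls in place of 4 and 1. *Slc39a9* (log2 fold change 0.48, limma adjusted p = 0.0567) and *Slc30a4* (log2 fold change -0.36, limma adjusted p = 0.0728) came nearest to the threshold among the rest. With equal totals *Slc39a9* was called higher (log2 fold change 0.84, adjusted p = 0.00553) and *Slc30a4* was at 0.00. *Slc39a9* was also called higher without WT replicate 2 (adjusted p = 0.00473), and *Slc30a4* was called lower without WT replicate 4 (adjusted p = 0.0278). *Slc30a3*, *Slc30a8* and *Slc39a5* had no reads in any muscle, and *Slc39a4* had none in WT muscle.

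**Figure D3:**
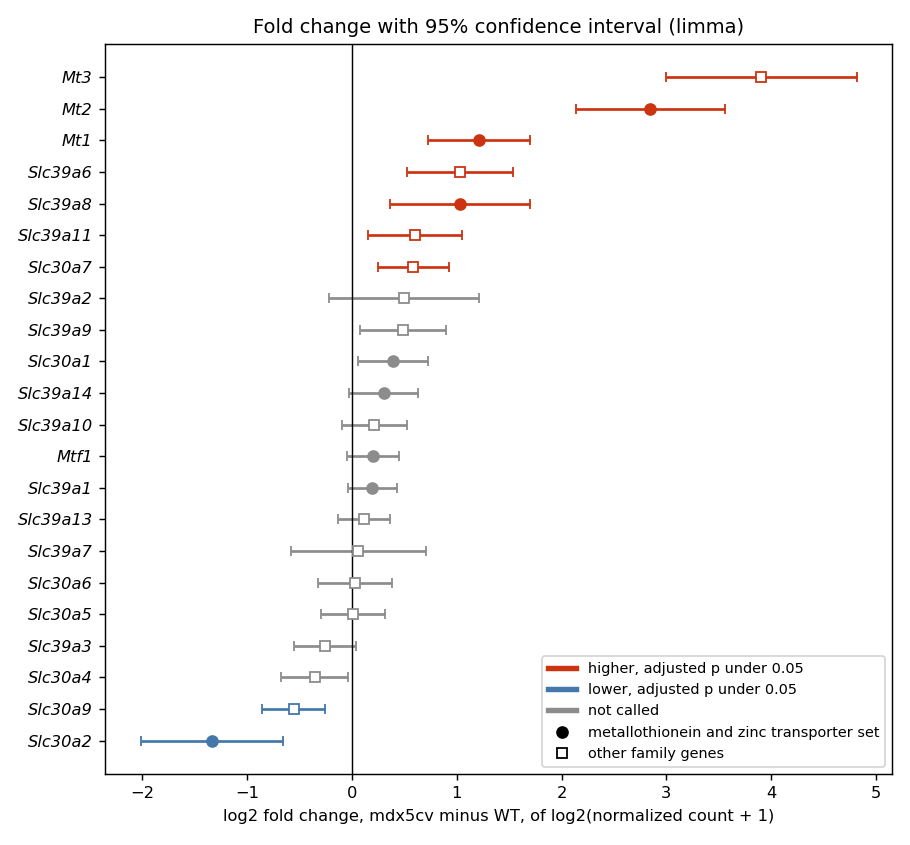
Log2 fold change (horizontal axis, *mdx5cv* minus WT) with its 95% confidence interval from limma for the 8 genes (filled circles) and the 14 tested genes of the wider family (open squares), sorted by size. *Mt3*, *Mt2* and *Mt1* lead with 3.91, 2.85 and 1.21, *Slc30a2* is lowest at -1.34, and gray intervals belong to genes that were not called.

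Levels of different genes were compared per kilobase of their merged exons. In WT muscle *Slc39a1* stood highest at 154 ± 17.0 normalized counts per kilobase, followed by *Mt1* at 37.6 ± 8.28, *Mtf1* at 25.6 ± 1.6, *Slc30a1* at 19.1 ± 3.50, *Mt2* at 17.5 ± 7.56, *Slc39a14* at 16.3 ± 3.39, *Slc30a2* at 7.34 ± 0.373 and *Slc39a8* at 0.864 ± 0.129 (SD, n = 4). *Mt1* and *Mtf1* overlapped over the 4 muscles, as did *Slc30a1* with *Mt2* and *Mt2* with *Slc39a14*. In *mdx5cv* muscle *Slc39a1* was at 176 ± 7.43, *Mt2* at 135 ± 51.5, *Mt1* at 89.0 ± 23.8, *Mtf1* at 29.6 ± 3.13, *Slc30a1* at 24.9 ± 2.19, *Slc39a14* at 19.9 ± 2.42, *Slc30a2* at 2.96 ± 1.52 and *Slc39a8* at 1.89 ± 0.218 per kilobase. *Mt2* thus stood below *Slc30a1* in WT and above *Mt1* in *mdx5cv* muscle, although its range overlapped with those of both *Slc39a1* and *Mt1*.

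This order depends on the length used, which for *Mt1* is 1246 bases of merged exons and 549 bases in its first listed transcript. With the length of the first listed transcript of each gene, a choice made after the data were seen, *Mt1* had the highest mean in *mdx5cv* muscle, 202 ± 54.1 normalized counts per kilobase, although its range overlapped with that of *Slc39a1* at 176, and *Mt2* was at 155.5 ± 59.3. *Slc39a14*, which has a long merged exon length, then rose to 82.1 in WT and 100.2 in *mdx5cv* muscle.

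**Figure D4:**
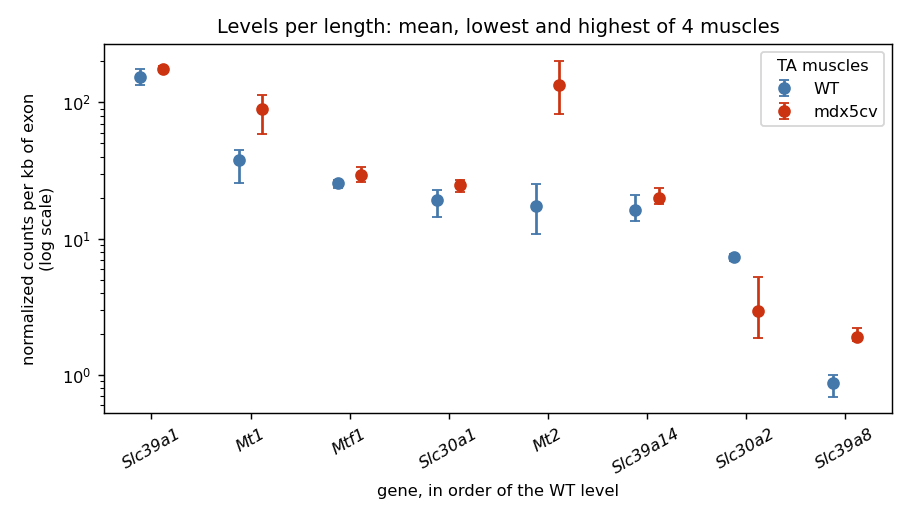
Normalized counts per kilobase of merged exon (vertical axis, log scale) for the 8 genes in the order of their WT level; points are means and error bars run from the lowest to the highest of 4 TA muscles. On this length *Mt2* moves from 17.5 in WT to 135 in *mdx5cv* muscle, with a mean between those of *Slc39a1* and *Mt1*. With the length of the first listed transcript, *Mt1* had the highest mean in *mdx5cv* muscle instead.

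The known inducers of metallothioneins and the related copper genes were described through lists that were chosen with earlier results of these data known. Of 11 IL-6 and acute phase genes, 7 were tested, 4 rose and none fell, with a median log2 fold change of 0.61. The shares in this and the following lists stand beside 20.9% higher and 20.1% lower calls among all genes tested. *Serpina3n*, an acute phase protease inhibitor, rose from 20.8 ± 9.67 to 191 ± 57.1 normalized counts (SD, n = 4), with a log2 fold change of 3.22 (limma adjusted p = 6.79e-06). *Socs3*, a feedback inhibitor of cytokine signaling, rose from 26.2 ± 8.93 to 119 ± 27.3, with a log2 fold change of 2.18 (limma adjusted p = 3.19e-05). *Il6ra* and *Stat3*, the IL-6 receptor and its transcription factor, rose with log2 fold changes of 1.22 and 0.61. *Il6st* was at -0.05 and *Hp* at -1.20, and neither was called (limma adjusted p = 0.722 and 0.205), although edgeR called *Hp* lower (log2 fold change -2.15, adjusted p = 0.0408). The WT mean of *Hp* rested mostly on replicate 4, with 13.8, 50.5, 9.95 and 218 normalized counts in WT muscles 1 to 4. In *mdx5cv* muscles *Hp* was at 11.1 to 28.8. With equal totals *Il6st* was at 0.31 and called higher (adjusted p = 0.0234). *Il6* itself was below the filter.

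Of 8 glucocorticoid response genes, 4 fell, 1 rose and 3 were not called, with a median log2 fold change of -0.42. *Zbtb16* fell from 1286 ± 429 to 799.8 ± 256 normalized counts (SD, n = 4) and *Sgk1* from 3419 ± 335 to 2251 ± 431, with log2 fold changes of -0.68 and -0.62 (limma adjusted p = 0.0425 and 0.00298). *Tsc22d3* and *Klf9* were the other genes that fell. Of the 4 falls, only that of *Sgk1* was still called without WT replicate 3 or without the variance trend. Without WT replicate 3 the adjusted p was 0.119 for *Zbtb16*, 0.0546 for *Tsc22d3* and 0.0535 for *Klf9*. *Zbtb16* was called in only 2 of the 8 fits that left out 1 muscle, those without WT replicate 2 or *mdx5cv* replicate 2, and *Fkbp5* was called lower without WT replicate 1 (adjusted p = 0.00727). *Cdkn1a*, a cell cycle inhibitor that is also a target of p53, rose from 23.2 ± 8.06 to 293 ± 142, with a log2 fold change of 3.54 (limma adjusted p = 2.44e-06). The glucocorticoid receptor *Nr3c1* had a log2 fold change of -0.03 (limma adjusted p = 0.835). With equal totals none of the 4 falls was called and *Nr3c1* was called higher, so that the list then held 2 higher and 0 lower calls.

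Of 8 oxidative stress genes, 7 were tested, 2 rose and none fell, with a median log2 fold change of 0.02, and the share of higher calls is near that of all genes tested. *Hmox1*, heme oxygenase, rose with a log2 fold change of 1.03 (limma adjusted p = 0.0206), although the groups overlapped, and *Nfe2l2*, which encodes NRF2, rose with 0.41 (limma adjusted p = 0.0117). The call of *Hmox1* was lost when WT replicate 2 (adjusted p = 0.0591), WT replicate 3 (0.0619) or the fourth *mdx5cv* muscle (0.0674) was left out. *Nqo1* and *Gclc* had the lowest log2 fold changes, -0.31 and -0.07, and were not called (limma adjusted p = 0.242 and 0.71), and both turned above 0 with equal totals (0.04 and 0.29). *Nqo1* was called lower without WT replicate 4 (adjusted p = 0.0384). Of 8 copper genes, 7 were tested, 1 rose and 1 fell, both shares below those of all genes tested, with a median of 0.26. *Slc31a2*, a copper transporter, rose with a log2 fold change of 0.58 (limma adjusted p = 0.00934), and *Sod1*, the copper and zinc superoxide dismutase, fell with -0.48 (limma adjusted p = 0.0163). *Atox1* and *Commd1* were at 0.38 and -0.31 and were not called (limma adjusted p = 0.0714 and 0.222), although *Atox1* was called higher without WT replicate 2 (adjusted p = 0.0418). With equal totals *Sod1* was at -0.13 and not called (adjusted p = 0.498), *Commd1* was at 0.04, and the copper list held 5 higher and 0 lower calls. The IL-6 list then held 6 higher and the oxidative stress list 4 higher calls, with none lower.

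The genes whose pattern over the 8 muscles was most like that of *Mt1* were found by the root mean square difference of log2 values, each centered on its own mean. Among the nearest were *H2-T24* (0.152), *Nav3* (0.176), *Cd40* (0.193) and *Ppp1r18* (0.196). For *Mt2* they were *Knstrn* (0.347), *B4galnt1* (0.380), *Egr3* (0.423), *Ifi47* (0.428) and *Cdk6* (0.432), which is a wider distance than for *Mt1*. *Cd40*, *Knstrn*, *B4galnt1* and *Egr3* averaged 5.74, 1.66, 9.68 and 3.07 normalized counts in WT muscle. They passed the filter only through their *mdx5cv* level, so part of their likeness was built in. The distance between *Mt1* and *Mt2* was 0.983, which placed *Mt1* at rank 879 from *Mt2*, and *Mt2* at rank 11552 from *Mt1*. *Mt3* was at rank 311 from *Mt2*, with a distance of 0.765, but it too passed the filter only through its *mdx5cv* level. This measure uses the size of the change, so genes with a smaller or larger change stand far apart even where their muscles fall in the same order.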

How the data were processed

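RNA-seq tables of 4 *mdx5cv* and 4 WT TA muscles were analyzed, with groups taken from the sample titles. The values the authors deposited are a signal for each of 55401 genes, the count of reads over a size factor of the sample, with no filter applied. The submitters' processing notes name Trim Galore 0.6.4, STAR 2.6.0c, SAMtools 1.9, featureCounts, DESeq2 1.26.0 and the mm10 genome, and the labels describe reversely stranded total RNA libraries. The strand setting of the counting is not given in the sources used here. All values (100%) were whole reads within 0.01 reads after multiplication by the size factor, and 13175524 to 14921057 reads were recovered per muscle. Size factors were 0.873 to 0.944 in WT and 1.06 to 1.25 in *mdx5cv* muscles. Reads of replicates differed by more than sampling noise (chi-square per degree of freedom 8.59 to 38.4).

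The main test was limma 3.58.1 in R 4.3.3, two-sided and without covariates, with lmFit, a variance trend in eBayes and Benjamini-Hochberg adjustment. It was run on log2(normalized count + 1) over 13677 genes that averaged at least 10. Alternatives changed the pseudocount to 0.1 or 10, dropped the filter or asked for at least 10 in each muscle, and scaled by TMM or to equal totals. Others left out the variance trend, added a replicate block, dropped each replicate once, or used edgeR 4.0.16 (quasi-likelihood) and DESeq2 1.42.0 on the recovered reads. The length of the first listed transcript was added as an alternative after the data were seen. Shares have exact (Clopper-Pearson) intervals, which cover counting error only. The scripts were tested on simulated data.

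The genes named are the 8 members, every other *Slc39a* and *Slc30a* gene with *Mt3* and *Mt4*, *Dmd*, and 4 lists of inducer and metal genes. From each list at most 4 examples were taken from the ends of its fold changes, and the other genes called were named after their values were seen. Marker lists for cell types, the neighbors of the cluster and the 5 genes nearest in profile to *Mt1* and *Mt2* complete them, except 1 gene that is not reported here. The members and lists were chosen with earlier results of these data known. Gene coordinates and exon lengths are those of GENCODE M21 (GRCm38), in which 55141 of the gene IDs were found. Promoter windows are from RefSeq (GRCm38.p6). Overlapping genes on the opposite strand are uncertain.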

Additional observations from a re-analysis of the deposited data

Results flagged for a closer look

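*Slc39a8* in *mdx5cv* replicate 2 was flagged as lying apart from the other *mdx5cv* muscles. Its value was 4.17 on the log2(normalized count + 1) scale, and the other 3 muscles lay between 3.86 and 3.90. These values rest on 15, 18, 15 and 17 reads in *mdx5cv* muscles 1 to 4, differences that counting error alone can give. The gap to the nearest muscle was 0.877 of the whole range of the group, above Dixon's 95% critical value for 4 samples. Among 20 sets of 4 muscles tested in this way, chance alone gives about 1 such set. The muscle is the one without which *Slc39a8* was no longer called (adjusted p = 0.0557 with limma), and it was also the highest *mdx5cv* muscle for *Mt1*, *Mt2* and *Mt3*.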

How the results depend on the processing

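None of the 8 genes changed direction in any alternative. *Mt1* was called in all 18 alternatives (log2 fold change 1.04 to 1.56, adjusted p at most 0.00452) and *Mt2* in all 17 that gave a value (2.11 to 3.19, at most 0.000428). Of the 8 genes, 4 were called, and 8 were called with equal totals. Requiring at least 10 in every sample left 1 call and 1 past the fold, because *Mt2*, *Slc39a8* and *Slc30a2* were left out by that filter. With a pseudocount of 10, 2 genes were past the fold. Leaving out each replicate in turn gave 3 to 6 genes called (3 without *mdx5cv* replicate 2 and 6 without WT replicate 4), 3 to 4 past the fold, 4 to 6 calls in the wider family and 9 to 13 calls in the 4 inducer and metal lists (9 without WT replicate 3, of which 2 were lower in place of 5), against 4, 4, 5 and 13 in the main analysis. Without the variance trend 10 list genes were called, 8 higher and 2 lower. edgeR called 4, 5 and 14, and DESeq2 3, 4 and 14 of the members, family and lists.

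With the replicate number as a block, 4 members, 5 family genes and 13 list genes were called, and the block changed no call of a member. In the lists *Zbtb16* was lost (adjusted p = 0.0623) and *Osmr* gained (adjusted p = 0.0496), so that 9 were higher and 4 lower in place of 8 and 5. Same-numbered muscles had correlations of their deviations of 0.0501, 0.0309, 0.0722 and 0.146, and 5 of 8 samples correlated best with their own number. Whether the numbers mark pairs cannot be decided from the labels or from these values. Depth limits *Slc39a8*, *Mt2* in WT muscle and *Slc30a2* in *mdx5cv* muscle, which rest on 24, 37 and 47 reads in 4 muscles. The cause of the changes with equal totals was not tested.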

Other observations

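Of the protein-coding genes on either side of the metallothionein cluster on chromosome 8, *Nup93* was called higher and *Bbs2* was not called. The difference between them was not tested. *Bbs2*, which lies beyond *Mt4* and encodes a subunit of the BBSome of cilia, was at 59.5 ± 9.14 normalized counts in WT and 52.7 ± 3.77 in *mdx5cv* muscle (SD, n = 4), with a log2 fold change of -0.16 (limma adjusted p = 0.455), which turned to 0.19 with equal totals and was again not called (adjusted p = 0.447). *Nup93*, which lies beyond *Mt1* and encodes a nuclear pore protein, rose from 91.95 ± 11.9 to 154 ± 47.4, with a log2 fold change of 0.71 (limma adjusted p = 0.00877). Its groups did not overlap, as was so for 40.1% of all genes tested, of which 20.9% were called higher. *Gm45774*, annotated antisense to *Mt2*, had 4 reads in the WT and 6 in the *mdx5cv* muscles.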
